A study of Mus musculus with 8 samples.

Results

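The genes described are 10 mouse enzymes that make and desaturate long-chain fatty acids: Acly, Acss2, Acaca, Fasn, Elovl5, Elovl6, Scd1, Scd2, Fads1 and Fads2. They were taken from a table of 27679 genes by matching its mouse Ensembl identifiers to these names, and all 10 had enough counts to be tested. The RNA came from megakaryocytes, the large marrow cells that shed platelets, of wild-type C57BL/6 mice. Lineage-negative bone marrow cells were cultured for 3 days in a soft hydrogel (methylcellulose at 2%, Young modulus 30 to 60 Pa) or in liquid medium, and the larger mature cells were then collected on a gradient of 2 to 4% BSA. There were 4 libraries from hydrogel (27012172 to 37059314 counts) and 4 from liquid (28825468 to 49281611 counts), and mouse age was not given in the sources used here.

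In textbook outline, fatty acid synthesis starts from cytosolic acetyl-CoA. ATP citrate lyase (Acly) cuts it from citrate, acetyl-CoA synthetase (Acss2) makes it from acetate, acetyl-CoA carboxylase (Acaca) turns it into malonyl-CoA, and fatty acid synthase (Fasn) builds the saturated chain. Elongases (Elovl) lengthen chains, the Scd enzymes make monounsaturated ones, and Fads1 and Fads2 add the double bonds of polyunsaturated ones. Many of these genes are known targets of the SREBP transcription factors, of which the Srebf2 product mainly drives sterol genes and the Srebf1 product mainly drives lipogenic genes, and the oxysterol receptors LXR are known to raise Srebf1 and Scd transcripts. Since cholesterol synthesis uses the same acetyl-CoA, the question was whether the lipogenic enzymes followed the sterol genes, which were lower in hydrogel.

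The promoters of 4 of the enzymes are shown because they differ in short motifs that often stand in promoters of sterol-regulated genes. Each is the RefSeq window from 250 bases before to 50 bases after the gene start, in the GRCm38.p6 assembly and on the strand of the gene. Capitals mark CCAAT (the NF-Y box) and GGGCGG (the Sp1-type GC box), read on both strands, so that ATTGG and CCGCCC are marked too. The windows of Acly and Acss2, the only enzymes whose transcripts passed the test in the comparison of cultures, come first, followed by those of Fasn and Fads2.
Acly, chr11:100527951-100528250, minus strand: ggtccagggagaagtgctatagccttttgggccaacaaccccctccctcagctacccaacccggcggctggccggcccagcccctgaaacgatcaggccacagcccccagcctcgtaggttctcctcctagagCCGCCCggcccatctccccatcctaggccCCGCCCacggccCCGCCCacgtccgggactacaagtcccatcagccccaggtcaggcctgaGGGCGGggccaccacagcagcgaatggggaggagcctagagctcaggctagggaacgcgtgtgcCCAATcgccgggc
Acss2, chr2:155517793-155518092, plus strand: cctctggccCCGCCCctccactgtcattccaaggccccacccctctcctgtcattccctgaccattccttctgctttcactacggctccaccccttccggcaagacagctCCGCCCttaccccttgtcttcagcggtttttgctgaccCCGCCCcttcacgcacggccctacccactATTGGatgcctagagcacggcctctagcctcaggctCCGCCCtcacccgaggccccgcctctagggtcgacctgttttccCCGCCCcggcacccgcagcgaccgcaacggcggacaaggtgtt
Fasn, chr11:120824498-120824797, minus strand: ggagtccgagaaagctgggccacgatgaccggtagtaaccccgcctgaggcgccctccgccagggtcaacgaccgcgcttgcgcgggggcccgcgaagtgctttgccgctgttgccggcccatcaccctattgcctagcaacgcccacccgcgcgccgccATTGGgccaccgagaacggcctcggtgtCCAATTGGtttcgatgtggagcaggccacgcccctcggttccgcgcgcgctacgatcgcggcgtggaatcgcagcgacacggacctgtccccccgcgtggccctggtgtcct
Fads2, chr19:10101454-10101753, minus strand: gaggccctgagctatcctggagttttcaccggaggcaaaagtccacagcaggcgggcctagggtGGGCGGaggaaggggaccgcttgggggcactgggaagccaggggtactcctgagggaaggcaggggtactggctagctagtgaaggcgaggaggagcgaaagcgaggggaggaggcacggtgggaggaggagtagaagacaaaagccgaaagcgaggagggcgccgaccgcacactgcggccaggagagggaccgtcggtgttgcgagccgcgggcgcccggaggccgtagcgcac

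The Acly window held 1 CCAAT and 4 GC boxes, and the Acss2 window 1 CCAAT and 5 GC boxes. The Fasn window held 3 CCAAT matches, of which a pair overlap on opposite strands, and no GC box, and the Fads2 window held 1 GC box and no CCAAT. Of the 7 enzymes with a window in the promoter table, 4 had a CCAAT (Fasn, Acly, Acss2 and Elovl5), against 41.1% of the 27025 genes with a window and 14 of 15 sterol synthesis genes. A GC box was present in 3 of 7 enzymes, in 38.2% of all genes and in 14 of 15 sterol genes. Both motifs stood together in 2 of 7 enzymes (Acly and Acss2), in 15.8% of all genes and in 13 of 15 sterol genes. The sterol regulatory element letters TCACNCCAC were in 0 of 7 enzymes, 1.44% of all genes and 1 sterol gene (Hmgcs1), and the E-box CACGTG was in 1 of 7 enzymes (Elovl5), 8.09% of all genes and 3 sterol genes. These are letters in a fixed window, and factor binding was not measured.

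The libraries did not differ by culture alone. Of 14 monocyte and macrophage markers, 11 were higher in hydrogel and 0 lower. Their summed level was 4010 to 8578 CPM (counts scaled to library size with TMM factors) in hydrogel and 1072 to 2277 CPM in liquid, with hydrogel 1 lowest in its group (4010, others 7143 to 8578) and liquid 2 highest in its own (2277, others 1072 to 1325). Of 12 megakaryocyte markers, 8 were lower in hydrogel and 0 higher, with sums of 25493 to 37255 CPM in hydrogel and 31252 to 51068 CPM in liquid. These sums overlapped through hydrogel 1 (37255, others 25493 to 27356) and liquid 2 (31252, others 46119 to 51068). Without both libraries 12 of 12 were lower, in a fit that called 40.6% of all genes, against 29.3% with all libraries. Leaving out the libraries nearest the other culture widens this contrast by construction, so this count is no separate support. Neutrophil markers were lower for 1 and higher for 1 of 6 tested, mast cell and basophil markers lower for 6 of 7, dendritic cell markers lower for 5 and higher for 1 of 6, and erythroid markers lower for 2 of 5. Liquid 2 also had the highest mast cell sum (584 CPM, other liquid libraries 136 to 361) and neutrophil sum (1196 CPM, others 270.1 to 634), and without hydrogel 1 and liquid 2 the mast cell markers called lower were 2. Of the markers of adipocytes, the classic lipogenic cells, Adipoq and Plin1 had 1 read over all hydrogel libraries and 0 over all liquid ones, Retn had 1 in hydrogel and 5 in liquid, and Fabp4, which macrophages also express, averaged 43.7 CPM in hydrogel and 4.22 CPM in liquid. In bulk RNA, fewer cells of a type and less RNA per cell cannot be told apart.

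Hydrogel culture left most of these enzymes without a called change. Tested with edgeR's quasi-likelihood test over 13845 genes (Benjamini-Hochberg adjusted p under 0.05), 2 of 10 were lower in hydrogel, where 14.1% of all genes tested were lower, and 0 of 10 were higher, where 15.1% of all genes were, so that 29.3% were called in either direction. The enzymes called lower were Acly and Acss2, the pair that supply acetyl-CoA. The median log2 change of the 10 was 0.05, beside −0.01 over all genes, with 5 positive and 5 negative, from −0.52 (Acly) to 0.34 (Scd1). The share of called enzymes is close to the share of called genes in general.

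**Figure D1:**
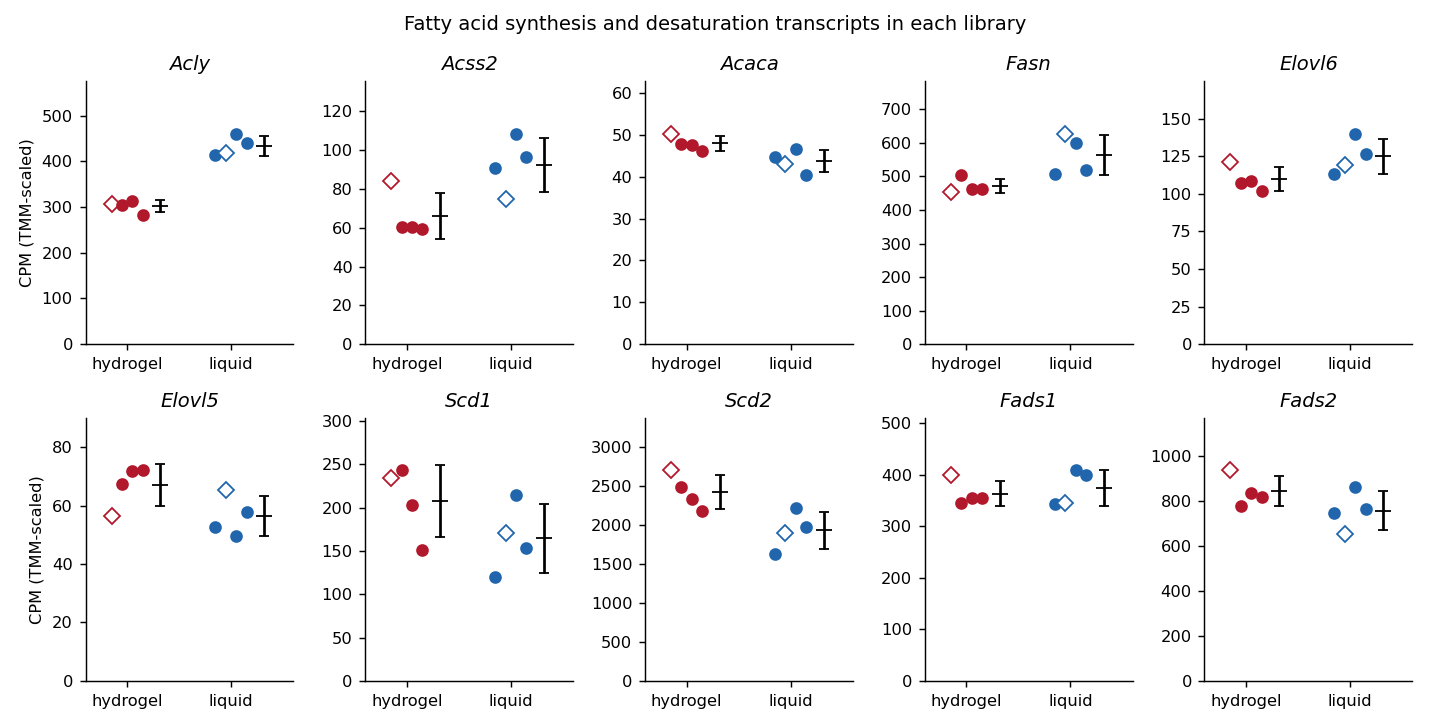
TMM-scaled CPM (linear axes from 0) of the 10 enzymes in each library, hydrogel in red left of liquid in blue; open diamonds are hydrogel 1 and liquid 2, and bars are mean ± SD of 4 libraries. The hydrogel points of Acly (283.4 to 314.0) lie below all liquid points (414.4 to 460.5), while those of Acss2, Acaca, Elovl5, Elovl6, Scd1, Scd2, Fads1 and Fads2 overlap between cultures.

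Acly (ENSMUSG00000020917) had 307.6, 305.6, 314.0 and 283.4 CPM in hydrogel libraries 1 to 4, and 414.4, 419.0, 460.5 and 439.9 CPM in liquid libraries 1 to 4. All 4 hydrogel libraries were below all 4 liquid ones, and the groups were tight. Its mean was 302.6 ± 13.3 CPM in hydrogel and 433.5 ± 21.2 CPM in liquid (SD, n = 4 each), a log2 change of −0.52 ± 0.07 (SE; 95% interval −0.67 to −0.36), or 1.43-fold lower (edgeR adjusted p = 0.000765). The call held with any 1 library left out, with adjusted p from 0.00036 to 0.00435. It did not hold when the macrophage marker score was added as a covariate (log2 change −0.42, adjusted p = 0.253), a fit in which 1.82% of genes were called. The score shares 86.8% of its variance with culture, and the part of the macrophage markers in these changes was not tested further.

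Acss2 (ENSMUSG00000027605) had 84.0, 60.5, 60.6 and 59.2 CPM in hydrogel, and 90.7, 75.0, 108.6 and 96.3 CPM in liquid. Hydrogel 2, 3 and 4 lay close together, hydrogel 1 stood well above them, and it was above liquid 2, so the groups overlapped. The means were 66.0 ± 12.0 CPM in hydrogel and 92.6 ± 13.9 CPM in liquid, a log2 change of −0.49 ± 0.14 (95% interval −0.80 to −0.18), 1.40-fold lower (adjusted p = 0.0246). Hydrogel 1 had the lowest macrophage marker sum of its culture and liquid 2 the highest of its own. Without these 2 libraries the log2 change of Acss2 was −0.70 (adjusted p = 1.4e-05), in a fit that called 40.6% of all genes, against 29.3% with all libraries. Hydrogel 1 and liquid 2 were nearest the other culture for Acss2 itself, so leaving them out widens its change by construction. The call was lost without hydrogel 2, 3 or 4 or without liquid 1, 3 or 4 (adjusted p up to 0.0757), and with the macrophage score as covariate the estimate was 0.38 (adjusted p = 0.439). Exons of Acss2 overlap those of opposite-strand genes (3.30% with Acss2os, 3.89% with Gss and 1.94% with Ggt7), so its count is uncertain to that extent, the strand setting not being given in the sources used here.

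The citrate carrier Slc25a1, which brings citrate out of mitochondria for Acly, was lower as well. It had 155.9, 143.2, 145.3 and 150.9 CPM in hydrogel, and 189.4, 179.0, 206.4 and 191.4 CPM in liquid, without overlap, and its log2 change was −0.36 ± 0.06 (adjusted p = 0.00273). With the macrophage score as covariate it was −0.15 (adjusted p = 0.711).

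Neither enzyme that builds the chain passed the test. Fasn (ENSMUSG00000025153) had 455.1, 503.9, 463.6 and 462.9 CPM in hydrogel, and 508.1, 627.4, 600.2 and 519.5 CPM in liquid. The groups did not overlap, as for 28.4% of all genes tested, but the highest hydrogel library and the lowest liquid library were only a few CPM apart. The means were 471.4 ± 22.1 CPM in hydrogel and 563.8 ± 59.0 CPM in liquid, with a log2 change of −0.26 ± 0.09 (95% interval −0.46 to −0.06) and an adjusted p of 0.0536. Several other settings put it past the threshold, among them upper-quartile scaling (adjusted p = 0.0231), DESeq2 (0.0252) and leaving out liquid 1 (0.044), so its call depends on the processing.

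Acaca (ENSMUSG00000020532) had 50.3, 47.7, 47.6 and 46.2 CPM in hydrogel, and 44.7, 43.0, 46.7 and 40.4 CPM in liquid. Its means were 47.9 ± 1.7 CPM in hydrogel and 43.7 ± 2.7 CPM in liquid, and its interval of −0.01 to 0.28 on the log2 scale (estimate 0.13, adjusted p = 0.160) excludes a fall the size of that of Acly. Of its exonic stretches of 50 bases, 29.2% also occur in the pseudogene Gm5182, which was counted at 70 reads over the hydrogel libraries and 73 over the liquid ones, so the count of Acaca is uncertain. The other carboxylase, Acacb, was low, at 1.46 ± 0.36 CPM in hydrogel and 1.63 ± 0.28 CPM in liquid (adjusted p = 0.662). Mid1ip1, a known activator of the carboxylase, averaged 222.4 ± 19.4 CPM in hydrogel and 227.6 ± 32.6 CPM in liquid (log2 change −0.03, adjusted p = 0.844; 0.03 when scaled by library totals).

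The elongases gave estimates of opposite sign, neither of which passed. Elovl6 (ENSMUSG00000041220), which extends the saturated product of Fasn, had 120.9, 107.5, 108.7 and 101.9 CPM in hydrogel, and 113.2, 119.4, 139.9 and 126.7 CPM in liquid. Its log2 change was −0.19 ± 0.08 (95% interval −0.37 to −0.00, adjusted p = 0.115), with means of 109.8 ± 8.0 CPM in hydrogel and 124.8 ± 11.5 CPM in liquid. Elovl5 (ENSMUSG00000032349), which extends polyunsaturated chains, had 56.5, 67.4, 71.9 and 72.1 CPM in hydrogel, and 52.7, 65.5, 49.7 and 57.9 CPM in liquid. Its log2 change was 0.25 ± 0.11 (95% interval 0.01 to 0.48, adjusted p = 0.105), with means of 67.0 ± 7.3 CPM in hydrogel and 56.4 ± 6.9 CPM in liquid. The overlap came from hydrogel 1, the lowest hydrogel library, and liquid 2, the highest liquid one. Without both, Elovl5 was called higher in hydrogel (0.41, adjusted p = 0.00127; 0.0298 without hydrogel 1 alone and 0.0268 without liquid 2 alone) and Elovl6 lower (−0.24, adjusted p = 0.0325), in a fit that called 40.6% of all genes. Leaving out the libraries that made the overlap widens the contrast of Elovl5 by construction, so its calls there are no separate support. With the macrophage score as covariate both estimates changed sign (Elovl5 −0.43 and Elovl6 0.04).

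Of the 4 desaturases, 0 passed the test. Scd2 (ENSMUSG00000025203) was the most abundant enzyme, with 2695.7, 2478.6, 2324.9 and 2177.1 CPM in hydrogel, and 1628.9, 1893.2, 2215.3 and 1966.5 CPM in liquid. Hydrogel 1, 2 and 3 were above all liquid libraries, while hydrogel 4 was below liquid 3. The means were 2419 ± 222 CPM in hydrogel and 1926 ± 241 CPM in liquid, with a log2 change of 0.33 ± 0.12 (95% interval 0.05 to 0.60, adjusted p = 0.0704). Scd2 was called higher with scaling by library totals (0.39, adjusted p = 0.0163), with DESeq2 (0.33, adjusted p = 0.0172) and without liquid 3 (0.40, adjusted p = 0.0381).

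Scd1 (ENSMUSG00000037071) had 234.5, 242.9, 202.6 and 150.7 CPM in hydrogel, and 119.7, 170.3, 214.6 and 153.1 CPM in liquid. Libraries of either culture spread widely and overlapped, with a coefficient of variation of 20.1% in hydrogel and 24.0% in liquid, the largest among the 10 enzymes in each culture. The log2 change was 0.34 ± 0.19 (95% interval −0.08 to 0.75, adjusted p = 0.204), with means of 207.7 ± 41.7 CPM in hydrogel and 164.4 ± 39.5 CPM in liquid. Of the exonic stretches of 50 bases, 4.56% of those of Scd1 and 3.97% of those of Scd2 also occur in other genes. Scd1 shares 2.97% with Scd2, and Scd2 shares 2.66% with Scd1, so reads from these stretches cannot be assigned with certainty between the pair. The remaining copies were nearly unread: Scd3 had 13 reads over the hydrogel libraries and 10 over the liquid ones, and Scd4 had 41 over the hydrogel libraries and 68 over the liquid ones.

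Fads2 (ENSMUSG00000024665), the delta-6 desaturase, had 936.1, 779.5, 837.6 and 818.5 CPM in hydrogel, and 747.9, 651.8, 863.6 and 762.6 CPM in liquid. Fads1 (ENSMUSG00000010663), the delta-5 desaturase, had 398.4, 344.5, 354.0 and 353.8 CPM in hydrogel, and 343.8, 344.4, 408.1 and 399.2 CPM in liquid. Libraries of the cultures overlapped for both genes. Fads2 averaged 842.9 ± 66.7 CPM in hydrogel and 756.5 ± 86.7 CPM in liquid, with a log2 change of 0.16 ± 0.10 (95% interval −0.07 to 0.39, adjusted p = 0.289; 0.22 and adjusted p = 0.0439 when scaled by library totals). Fads1 averaged 362.7 ± 24.2 CPM in hydrogel and 373.9 ± 34.6 CPM in liquid, with a log2 change of −0.04 ± 0.09 (95% interval −0.24 to 0.15, adjusted p = 0.738; 0.02 when scaled by library totals). Whether the roles differ from one another in their change was not tested.

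The sterol synthesis genes changed far more. Of 20, from thiolase Acat2 to the last reductases, 19 were lower in hydrogel, where 14.1% of all genes tested were lower. The median log2 change of the 20 was −1.06 (2.08-fold lower). Those 19 ranged from −1.82 for Tm7sf2, a sterol reductase, to −0.51 for Ebp, the sterol isomerase. Among those with the smallest adjusted p were Acat2 (28.3 ± 1.3 CPM in hydrogel, 62.1 ± 4.1 CPM in liquid), the ketoreductase Hsd17b7 (33.2 ± 1.5 CPM in hydrogel, 86.1 ± 12.8 CPM in liquid) and lanosterol synthase Lss (104.6 ± 7.7 CPM in hydrogel, 222.8 ± 21.8 CPM in liquid). Mvk, which phosphorylates mevalonate, fell by 1.08 on the log2 scale (adjusted p = 9.29e-05), and Dhcr7, a late reductase, by 0.99 (adjusted p = 0.000113). Squalene epoxidase Sqle fell by 0.86 on the log2 scale (adjusted p = 0.000238). Without hydrogel 1 and liquid 2, a fit that called 40.6% of all genes in either direction, 20 of 20 were lower. By the mean of the sterol genes these libraries were nearest the other culture, so this count is no separate support. With the macrophage score as covariate, a fit that called 1.82% of all genes, 3 of the 20 were lower. Their median log2 change in that fit was −0.77.

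**Figure D2:**
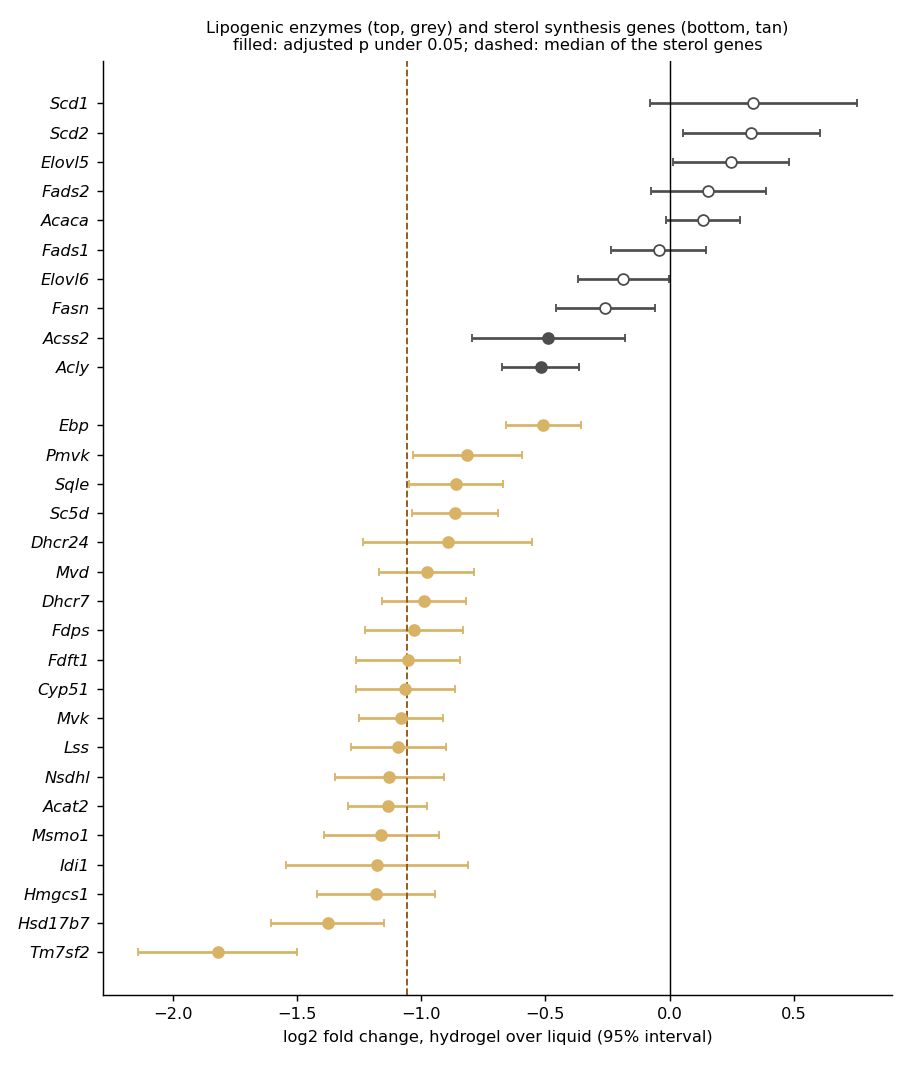
Log2 fold change of hydrogel over liquid with its 95% interval for the 10 lipogenic enzymes (grey, top) and 19 of the 20 sterol synthesis genes (tan, bottom); filled points passed the test and the dashed line is the median of all 20 sterol genes. Every enzyme's interval lies to the right of the sterol median of −1.06, and only Acly and Acss2 are filled among the enzymes.

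The lower 95% bound of each of the 10 enzymes was above the sterol median. The difference itself was tested by asking whether a gene changed differently from the mean of the 20 sterol genes in the same libraries (the sterol index, added to the model as an offset). All 10 enzymes were above the index and 0 below, where 85.2% of all genes tested were above and 0.896% below, so that being above it sets the enzymes apart from the sterol genes but hardly from genes in general. The distance from the index ran, on the log2 scale, from 0.50 for Acly (95% interval 0.34 to 0.66, adjusted p = 6.04e-05) and 0.53 for Acss2 (0.31 to 0.76, adjusted p = 0.000458), through 0.76 for Fasn (0.51 to 1.01), 0.83 for Elovl6 and 0.98 for Fads1, to 1.15 for Acaca, 1.18 for Fads2, 1.26 for Elovl5, 1.35 for Scd2 and 1.36 for Scd1. The median gene tested was 1.003 above it. Acly and Acss2 thus lay furthest below the middle of all genes among the 10 enzymes. Fasn, Elovl6 and Fads1 were below that middle too, and all were above the sterol mean. With an index of the mevalonate arm alone or of the squalene arm alone, 10 of 10 were again above. With the macrophage score as covariate 6 of 10 were, the differences of Acly (0.28), Fasn (0.12), Elovl5 (0.28) and Scd1 (1.08) no longer passing.

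**Figure D3:**
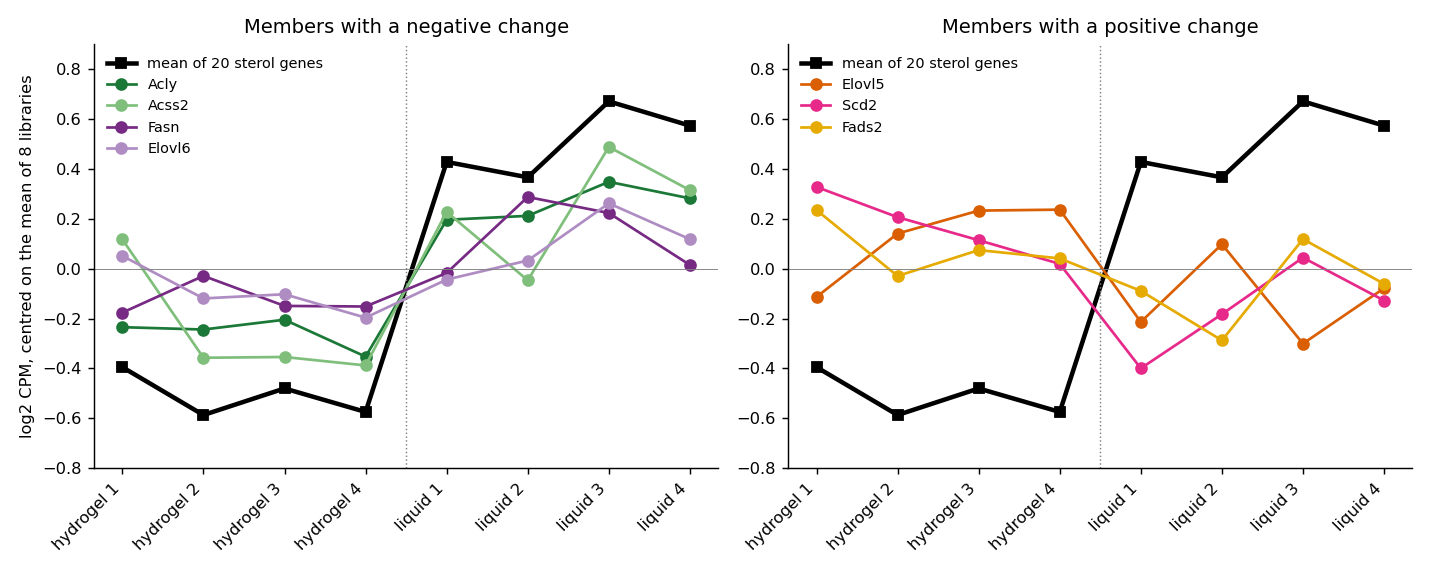
Log2 CPM, centred on the mean of the 8 libraries, of 4 enzymes with a negative change (left) and 3 with a positive one (right), with the mean of the 20 sterol genes in black; hydrogel libraries stand left of liquid libraries. The sterol mean lies between −0.59 and −0.39 in hydrogel and between 0.37 and 0.67 in liquid, Acly steps with it by a smaller amount, and Acss2 departs from it in hydrogel 1 and liquid 2.

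Over the contrast of cultures, Acly was the enzyme with most sterol genes among its closest profiles. Over the 8 libraries and 9384 genes with a mean of at least 5 CPM, the 100 profiles with the highest Pearson correlation to Acly held 18 of the sterol genes, led by Mvd (r = 0.998) and Fdps (r = 0.997), as a description of 8 points that share the contrast of cultures. Within cultures, after each culture mean was removed, the median correlation with the sterol genes was 0.62 for Acly, below Fads2 (0.76), Elovl6 (0.75), Fads1 (0.75) and Acss2 (0.71), so Acly did not lead there. Measured by root mean square difference of centred log2 CPM, which also counts the size of the change, of the sterol genes only Ebp was among the 100 nearest to Acly, at rank 12, and its 3 nearest genes were Csnk1e (0.05), Dag1 (0.06) and Rnf166 (0.06). Elovl6 had 1 sterol gene among its 100 nearest by this measure, and the other enzymes had 0.

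The nearest genes of the others by the same measure included Nudt16 and Mfsd2b for Acss2 (differences of 0.04 and 0.05), Sppl2b, Map2k7 and Aasdh for Fasn (0.05 to 0.06), Prpf6, Hnrnpul2 and Bag6 for Acaca (0.03 to 0.04), and Kidins220, Erc1 and Stx16 for Elovl6 (0.02 to 0.03). For Elovl5 they were Fam49b, Slc35c1 and Sgo2a (0.04 to 0.05), for Fads1 Tug1 and Lcor (0.03 to 0.04), for Fads2 Arl16, Irak3 and Efemp2 (0.04 to 0.05), and for Scd2 Galnt7, Akap13 and Hipk2 (0.07 to 0.08). The Scd1 profile was the least shared: Tex15 was 0.14 away, Plxnb3 0.16 and Scd2 0.17. None of the 10 enzymes had another enzyme of the set among its 3 nearest genes except Scd1.

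Levels between genes were compared per kilobase of exon, taking the merged length of all annotated exons of a gene. This length was 17.1 kb for Acaca, 10.9 kb for Fasn, 10.2 kb for Acss2 and 3.3 to 6.4 kb for the others. It can exceed the length of the transcript present, which would understate the level, so the order between genes is approximate. In hydrogel the order was Scd2 (443 ± 40.6 CPM per kb), Fads2 (256 ± 20.2), Fads1 (75.4 ± 5.03), Acly (57.3 ± 2.52), Fasn (43.1 ± 2.01), Scd1 (42.5 ± 8.53), Elovl5 (19.0 ± 2.07), Elovl6 (17.1 ± 1.2), Acss2 (6.50 ± 1.18) and Acaca (2.81 ± 0.10). In liquid it was Scd2 (352 ± 44.2 CPM per kb), Fads2 (230 ± 26.3), Acly (82.1 ± 4.01), Fads1 (77.7 ± 7.19), Fasn (51.5 ± 5.39), Scd1 (33.6 ± 8.07), Elovl6 (19.4 ± 1.79), Elovl5 (16.0 ± 1.96), Acss2 (9.11 ± 1.37) and Acaca (2.56 ± 0.16). Neighbours whose libraries overlapped were Fasn with Scd1 and Elovl5 with Elovl6 in hydrogel, and Acly with Fads1 and Elovl6 with Elovl5 in liquid. The order of the cultures therefore differed at Acly, which stood below Fads1 without overlap in hydrogel, and at the elongases, whose levels overlapped. Scd2 was 10.4 times Scd1 per kb in hydrogel and 10.5 times in liquid, so the main stearoyl-CoA desaturase transcript was Scd2 in both.

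Regulators of the pathway moved in both directions. Of 13 tested genes of SREBP and LXR control, 5 were lower and 2 higher (median log2 change −0.03), beside 14.1% lower and 15.1% higher of all genes tested. Srebf1, the lipogenic SREBP, had 216.8, 231.2, 194.2 and 194.6 CPM in hydrogel, and 150.1, 175.7, 171.3 and 152.6 CPM in liquid, a rise of 0.37 ± 0.08 on the log2 scale (adjusted p = 0.00966). Srebf2, the sterol SREBP, had 492.9, 467.1, 452.7 and 447.2 CPM in hydrogel, and 571.0, 569.3, 641.5 and 611.2 CPM in liquid, a log2 change of −0.36 ± 0.07 (adjusted p = 0.00568). Neither gene's libraries overlapped between cultures, and the genes changed in opposite directions. With the macrophage score as covariate neither passed (Srebf1 0.23, adjusted p = 0.640; Srebf2 −0.19, adjusted p = 0.651). Insig1, which retains SREBP in the endoplasmic reticulum and is itself a target, fell to 69.1 ± 8.2 CPM in hydrogel, against 116.3 ± 7.0 CPM in liquid (log2 change −0.75, adjusted p = 0.000511; −0.53 and adjusted p = 0.249 with the macrophage score as covariate). The SREBP escort Scap did not pass (79.3 ± 2.9 CPM in hydrogel, 73.2 ± 6.9 CPM in liquid, adjusted p = 0.280).

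The LXR-alpha gene Nr1h3 was higher, at 10.4 ± 3.26 CPM in hydrogel and 2.52 ± 0.52 CPM in liquid (log2 change 2.05, adjusted p = 0.000642). Of 8 LXR targets of sterol export, 5 were higher, where 15.1% of all genes tested were, and 0 lower. Their median log2 change was 1.81. Abca1, the cholesterol exporter, averaged 96.3 ± 12.1 CPM in hydrogel and 26.0 ± 5.8 CPM in liquid (1.89, adjusted p = 0.000113), the exporter Abcg1 changed by 2.80 (adjusted p = 0.000499), the lipid transfer protein Pltp by 2.75 (adjusted p = 0.000245), and Arl4c by 2.04 (adjusted p = 0.00207). These genes rose together with the macrophage markers, which were 11 of 14 higher. With that score as covariate, Nr1h3 was at 0.39 (adjusted p = 0.758) and 1 of the 8 targets was called. That target was Abca1 (2.29, adjusted p = 0.0139). The lipogenic targets of LXR among the 10 enzymes, Scd1, Scd2 and Fasn, did not pass in either direction.

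Among 7 tested genes that supply citrate and NADPH or partner the carboxylase, 1 was lower (Slc25a1) and 3 higher (median log2 change −0.03). Beside them, 14.1% of all genes tested were lower and 15.1% higher. The 3 were NADPH producers: G6pdx of the pentose phosphate pathway had 338.2, 343.4, 340.3 and 337.2 CPM in hydrogel, and 229.8, 216.9, 254.8 and 225.7 CPM in liquid (log2 change 0.55, adjusted p = 0.000566). Pgd, the next dehydrogenase of that pathway, changed by 0.62 (adjusted p = 0.000935), and malic enzyme Me1 by 0.60 (adjusted p = 0.0116). With the macrophage score as covariate Me1 was still called (1.44, adjusted p = 0.0234). G6pdx (0.71, adjusted p = 0.0682) and Pgd (0.48, adjusted p = 0.296) were not called in that fit.

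Among the other enzyme lists, elongation (4 of 9) and beta-oxidation (5 of 15, the longest list) had the most genes called lower. Of all genes tested, 14.1% were lower and 15.1% higher. Of 9 tested other elongation genes, 4 were lower and 0 higher (median −0.33). These were the enoyl-CoA reductase Tecr (178.4 ± 4.9 CPM in hydrogel, 267.8 ± 22.5 CPM in liquid, log2 change −0.59, adjusted p = 0.000591), the dehydratases Hacd2 (−0.52, adjusted p = 0.00168) and Hacd1 (−0.46, adjusted p = 0.0103), and the elongase Elovl3, at under 2 CPM (16 reads over the hydrogel libraries, 206 over the liquid ones, adjusted p = 0.00103). Elovl1, the elongase of very long chains, averaged 199.3 ± 8.2 CPM in hydrogel and 202.6 ± 17.5 CPM in liquid (log2 change −0.02, adjusted p = 0.842; 0.04 when scaled by library totals). Of 15 genes of beta-oxidation, 5 were lower and 1 higher (median −0.19), among them Hadh (−0.53, adjusted p = 0.00106), Acadm (−0.45, adjusted p = 0.00661) and Decr1 (−0.31, adjusted p = 0.0124, but 0.0522 when scaled by library totals). The gene that was higher was Cpt1a, the gate of mitochondrial fatty acid entry, with 78.2 ± 6.7 CPM in hydrogel and 55.8 ± 5.8 CPM in liquid (0.49, adjusted p = 0.00331). Of 5 tested genes of mitochondrial fatty acid synthesis, 1 was lower and 0 higher (median −0.02), namely the acyl carrier protein Ndufab1 (−0.38, adjusted p = 0.0326), whose call was lost without any 1 hydrogel library or without liquid 1 or 3 (adjusted p up to 0.0859), without both hydrogel 1 and liquid 2 (0.095), with scaling by library totals (0.106) and with no filter on low counts (0.0577).

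Of 7 tested other desaturases and electron donors, 1 was lower and 1 higher (median −0.23), beside 14.1% lower and 15.1% higher of all genes tested. Fads3, a neighbour of Fads1 and Fads2 in the same family, had 22.3, 20.6, 17.8 and 23.7 CPM in hydrogel, and 39.0, 38.3, 34.7 and 35.8 CPM in liquid, with a log2 change of −0.81 (adjusted p = 0.000502). Degs1, the desaturase of ceramide synthesis, had 93.1, 135.9, 147.7 and 135.0 CPM in hydrogel, and 57.4, 74.3, 53.8 and 65.7 CPM in liquid, with a log2 change of 1.03 (adjusted p = 0.00103). Hydrogel 1 was the lowest hydrogel library and liquid 2 the highest liquid one for Degs1, the order of the macrophage markers in each culture, and with the macrophage score as covariate its change was 0.06 (adjusted p = 0.937).

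Of 5 tested acyl-CoA synthetases, 0 were lower and 1 higher (median 0.04), Acsbg1 at under 4 CPM (426 reads over the hydrogel libraries, 77 over the liquid ones, adjusted p = 0.000198). Of 8 glycerolipid assembly genes, 1 was lower and 1 higher (median −0.04). The acyltransferase Agpat3 averaged 444.3 ± 33.2 CPM in hydrogel and 346.1 ± 27 CPM in liquid (log2 change 0.36, adjusted p = 0.0104), and the phosphatidate phosphatase Lpin2 45.2 ± 9.0 CPM in hydrogel and 60.8 ± 5.9 CPM in liquid (−0.43, adjusted p = 0.0352), a call lost without hydrogel 2, 3 or 4 or without liquid 1, 3 or 4 (adjusted p up to 0.104). Over all 9 lists, 77 of 84 genes were tested, 18 were lower and 14 higher, and the median log2 change was −0.04. The shares over all genes tested were 14.1% lower and 15.1% higher. With the macrophage score as covariate 3 of the 77 were called, each of them higher, among them Abca1 and Me1.

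**Figure D4:**
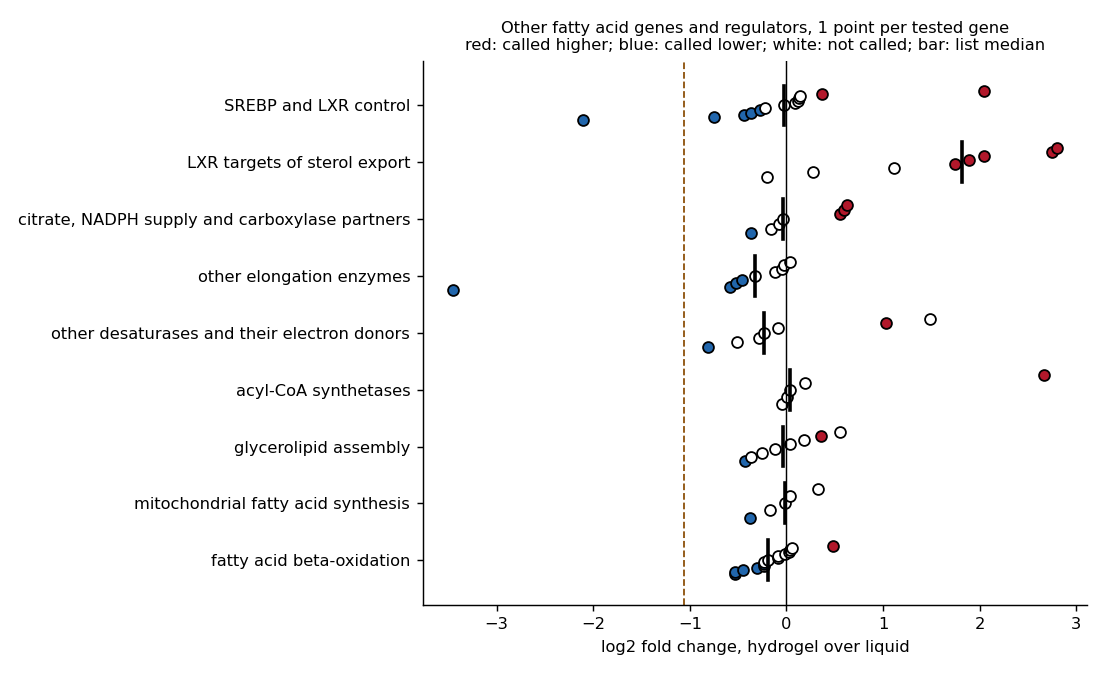
Log2 fold change of hydrogel over liquid for each tested gene of 9 lists of regulators and other fatty acid genes; red points were called higher, blue lower, white not called, black bars are list medians and the dashed line is the sterol median of −1.06. List medians lie between −0.33 (other elongation enzymes) and 0.04 (acyl-CoA synthetases), except for the LXR export targets at 1.81.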

How the data were processed

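PolyA-selected stranded RNA-seq libraries were mapped and counted by the authors with bcl2fastq, STAR 2.7.10b and HTSeq 0.13.5 on GRCm39, per the submitters' processing notes. The deposited values are raw counts per gene, without normalization. The sources used here give neither the annotation release nor the strand setting. The table holds 27679 genes and 2 stray text lines, which were left out. Symbols and exon lengths came from GENCODE by identifier (26534 matched, 1145 did not, no more than 0.135% of any library), promoter windows from RefSeq (GRCm38.p6). Totals were 27012172 to 49281611 counts per library. Groups came from the sample labels, which call the replicates independent.

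Genes were filtered with filterByExpr (13845 kept), TMM-scaled and tested with edgeR 4.0.16 (R 4.3.3) quasi-likelihood on culture alone, p-values being adjusted over all genes tested (Benjamini-Hochberg, 0.05). Standard errors are the log2 change over the square root of F. The sterol index is the mean centred log2 CPM (prior count 2) of 20 sterol genes. Alternatives were other scalings (DESeq2 size factors, upper quartile, totals), other filters (none, 1 CPM in 4 libraries), DESeq2 1.42.0, limma-voom (limma 3.58.1), a stricter threshold (0.01), a replicate block, libraries left out and a macrophage marker covariate. The scripts were tested on simulated counts. Named were the 10 enzymes, up to 4 passing genes of smallest adjusted p per list, a fixed panel, and the 3 nearest profiles of each enzyme. Members and lists were chosen with earlier results of these data known. Some genes named by that rule are not reported here. Scd3, Scd4, Fabp4 and Ebp were added after their values were seen. Values were handled in Python 3.11.15 (pandas 2.3.3, numpy 2.4.6) and drawn with matplotlib 3.10.9.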

Additional observations from a re-analysis of the deposited data

Results flagged for a closer look

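Of 22 sets of 4 libraries examined for a value standing apart, 1 was marked: Acss2 in hydrogel 1, where the gap of log2 CPM to the nearest hydrogel library was 0.933 of the whole range of the group, above Dixon's critical value for sets of this size. Hydrogel 1 had 84.0 CPM and the other hydrogel libraries 59.2 to 60.6 CPM. Chance marks about 1 in 20 such sets. Hydrogel 1 also had the lowest macrophage marker sum of its culture (4010 CPM, against 7143 to 8578 CPM), and the part of that difference in the Acss2 value was not tested. Without hydrogel 1, Acss2 was lower in hydrogel with an adjusted p of 0.00281 (edgeR), against 0.0246 with it. Leaving out the hydrogel library nearest the liquid ones widens the change by construction.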

How the results depend on the processing

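All 10 enzymes stayed above the sterol index under every alternative run for that fit (DESeq2 was not run for it) except the macrophage covariate (6 of 10), with 10 to 10 when any 1 library was left out. The covariate is nearly collinear with culture (variance inflation factor 7.6), and standard errors grew with it (Acly from 0.07 to 0.18). Estimates moved as well, little for Acly (−0.52 to −0.42) and far for Degs1 (1.03 to 0.06) and Abcg1 (2.80 to 0.57). Those of Abca1 (1.89 to 2.29) and Me1 (0.60 to 1.44) grew. The parts of culture and macrophage score in the lost calls cannot be told apart here. With the covariate, 0 enzymes and 3 sterol genes were lower, the sterol median being −0.77, against −1.06 without it. It left 3 of the other fatty acid genes called (3 higher, against 14 without the covariate, and 0 lower, against 18). Of the other named genes, 26 lost their call with the sign kept. Estimates then changed sign for Acss2 (0.38), Elovl5 (−0.43), Elovl6 (0.0387), Fads1 (0.22), Mid1ip1 (0.53), Acacb (0.43), Elovl1 (0.0927), Arl4c (−0.42), Hacd1 (0.0086), Lpin2 (0.25) and Acadm (0.10). All genes called numbered 104 lower and 148 higher with it, against 1956 and 2096.

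Enzymes called lower numbered 4 with upper-quartile scaling (adding Fasn and Elovl6), 1 at adjusted p under 0.01 and 1 to 2 with 1 library left out. Enzymes called higher numbered 2 with totals (Scd2 and Fads2), 1 with DESeq2 (Scd2), 1 without both hydrogel 1 and liquid 2 (Elovl5) and 0 to 1 with 1 library left out. Fads1 turned to 0.0210, Mid1ip1 to 0.0343 and Elovl1 to 0.0432 with totals. Mid1ip1 ranged from −0.102 to 0.0635 and Elovl1 from −0.0740 to 0.0162 with 1 library left out. Of the other fatty acid genes, 10 were lower at adjusted p under 0.01, a threshold at which 911 genes were lower and 1180 higher. Upper-quartile scaling called 2492 genes lower and 1755 higher, against 1956 lower and 2096 higher with TMM, and leaving out hydrogel 2 left 1224 lower. Scaling moved the median of all genes by at most 0.06. Where no value shows the cause of a change, the cause was not tested.

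Same-numbered libraries did not deviate together in every pair (correlations 0.41, 0.69, −0.27 and 0.095), so the numbers are not taken as pairs. With the number as a replicate block, 3 enzymes were lower (adding Fasn, −0.25, adjusted p = 0.0433), 0 higher, 10 above the index and 35 other fatty acid genes called, while Ndufab1 had an adjusted p of 0.0584. With 4 libraries per culture, a change the size of that of Scd1 could not be separated from the spread between libraries.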
